A study of Mus musculus with 8 samples.

Results

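The proteasome subunit genes were taken as all genes whose symbol is Psm followed by a letter from a to g and a number, without the inducible immunoproteasome subunits Psmb8, Psmb9 and Psmb10 and the testis subunit Psma8. Of 18193 genes measured by a probe set that lists a single symbol, 43 met this rule, and where several such probe sets measure a gene, the one highest on average over the 8 arrays was used. A further symbol, Psme2, shares its only probe set with another gene and was not counted. The 43 genes comprise 14 subunits of the proteolytic core, 17 subunits of the regulatory particle and 12 others: assembly chaperones, alternative activators, an inhibitor and the thymus-specific core subunit Psmb11.

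RNA was measured on Affymetrix mouse arrays in bone-marrow-derived macrophages, which had been differentiated with macrophage colony-stimulating factor and selected by adherence, in 4 groups of 2: LPS-treated Tpl2-deficient, LPS-treated wild-type, unstimulated Tpl2-deficient and unstimulated wild-type. LPS, a bacterial ligand of toll-like receptor 4 from Escherichia coli, was given at 1 μg/mL; the labels give no treatment time for these arrays and no allele, strain, sex or age of the mice. Tpl2, encoded by Map3k8, is a kinase that relays toll-like receptor signals to MEK and ERK. Each group's arrays are titled as biological replicates, but no label ties them to separate animals, so the p-values capture no more than the spread between these samples.

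The proteasome degrades proteins tagged with ubiquitin. Its core is a barrel of stacked rings in which alpha subunits form the outer gates and beta subunits, some of them proteases, form the inner chamber. A regulatory particle caps the barrel: its base holds a ring of ATPases that unfold substrates and feed them into the core, and its lid removes the ubiquitin. In macrophages exposed to inflammatory signals, inducible beta subunits replace the constitutive catalytic ones and an alternative cap that needs no ubiquitin appears, both known for their part in antigen processing.

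Levels are log2 RMA intensities as deposited, and differences are log2 differences with the standard error (±) of 1 limma model over the 8 arrays. A gene passed the test where its p, adjusted by Benjamini and Hochberg over all 18193 genes, was under 0.05. Of the 43 genes, 42 lay above the median gene in their mean over the arrays. The exception was Psmb11, with levels between 4.78 and 5.14 in every array and no called difference in any comparison. Arrays have no read depth, and the number of arrays limits the precision.

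A few facts of the whole set of arrays bear on the values below. Map3k8, the targeted gene, had levels of 9.83 and 10.09 in LPS-treated Tpl2-deficient cells against 11.01 and 10.91 in LPS-treated wild-type cells. Unstimulated, it had 8.32 and 8.23 in Tpl2-deficient cells against 9.27 and 9.28 in wild-type cells. Where its probe set lies relative to the deletion was not given by the labels. The 2 LPS-treated Tpl2-deficient arrays stood further apart than those of any other group, with a median SD over all genes of 0.129 against 0.0649 to 0.0662. Over the 43 genes this SD was 0.136 against 0.0295 to 0.0405, so standard errors of comparisons with that group may be too small. All 8 macrophage markers measured were above the array median in every group; with LPS, Tpl2-deficient cells had 2 of them called higher and 4 called lower, and wild-type cells 2 called each way. The first unstimulated Tpl2-deficient array had the highest summed level of the 4 stromal markers, 27.9, against 23.9 in the second and 24.8 to 26.0 over the LPS-treated Tpl2-deficient, LPS-treated wild-type and unstimulated wild-type arrays. Of 5 neutrophil markers, 1 was above it in every group, and 4 rose with LPS in wild-type and 1 in Tpl2-deficient cells; their summed levels were 32.0 to 32.9 in LPS-treated Tpl2-deficient, 32.5 to 33.0 in LPS-treated wild-type, 30.9 to 31.5 in unstimulated Tpl2-deficient and 30.1 to 30.7 in unstimulated wild-type arrays. For the control gene Actb, the 3′ minus 5′ probe set difference, which reflects RNA integrity, was 0.61 and 0.68 in LPS-treated Tpl2-deficient, 0.46 and 0.55 in LPS-treated wild-type, 0.87 and 0.90 in unstimulated Tpl2-deficient and 0.81 and 0.67 in unstimulated wild-type arrays. The part of these signals in the results was not tested. In bulk samples fewer cells of a type and less RNA per cell cannot be told apart.

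The first question is what LPS did to the proteasome genes. In Tpl2-deficient macrophages 16 of the 43 rose and 4 fell (46.5%), against 41.8% of all genes called in either direction. By direction, 37.2% of the 43 rose and 9.3% fell, beside 16% and 25.8% of all genes. In wild-type macrophages 13 rose and 9 fell (51.2%), against 52.2% of all genes called, so the share called was near that of all genes. By direction, 30.2% of the 43 rose and 20.9% fell, beside 21.3% and 30.9% of all genes. The 43 genes had median differences of 0.22 (Tpl2-deficient cells) and 0.03 (wild-type cells), against medians over all genes of 0.00 and 0.04. These counts depend on the scaling: with arrays centred on the hybridisation spike-ins, which shifted the median of all genes to -0.20 and -0.09, 9 rose (20.9%) and 7 fell (16.3%) in Tpl2-deficient cells, beside 9.87% and 35.1% of all genes. In wild-type cells 10 rose (23.3%) and 14 fell (32.6%) with that centring, beside 11.5% and 34.4% of all genes. Since 42 of the 43 lie above the median gene, the 9096 genes above it were also fitted alone. Their medians were -0.20 in Tpl2-deficient and -0.32 in wild-type cells, against 0.23 and 0.03 for the 42. In Tpl2-deficient cells 45.2% of the 42 rose and 9.52% fell, beside 23.9% and 45.9% of the 9096. In wild-type cells 33.3% rose and 26.2% fell, beside 23.2% and 53.2%.

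The counts were also taken by subcomplex. Beside them, 16% of all genes rose and 25.8% fell in Tpl2-deficient cells, and 21.3% rose and 30.9% fell in wild-type cells. In the core alpha ring, 6 of 7 genes rose in Tpl2-deficient and 5 of 7 in wild-type cells, with median differences of 0.80 and 0.70. In the core beta ring 3 of 7 rose in Tpl2-deficient and 1 of 7 in wild-type cells, with medians of 0.23 and 0.05. In the regulatory particle 4 of 17 rose (23.5%) and 2 fell (11.8%) in Tpl2-deficient cells, with a median of 0.15. In wild-type cells 4 rose (23.5%) and 5 fell (29.4%), near the shares of all genes, with a median of -0.10. Of the 4 core assembly chaperones 0 rose in either genotype, while 1 fell in Tpl2-deficient and 3 in wild-type cells. In both genotypes 11 genes rose (25.6%) and 4 fell (9.3%), beside 11.4% and 23.2% of all genes, and 0 were called in opposite directions, beside 0.665% of all genes. Besides the genes named below with their values, single arrays decided some calls. In Tpl2-deficient cells Psma7 was lost without either unstimulated or the first LPS-treated array and Psmd11 without either unstimulated array. In wild-type cells Psmd6, Psmc3, Psmd13 and Psmd2 were lost without any 1 wild-type array, Psmd13 also without either unstimulated Tpl2-deficient array, and Psmc6 without the first array of either wild-type group.

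**Figure D1:**
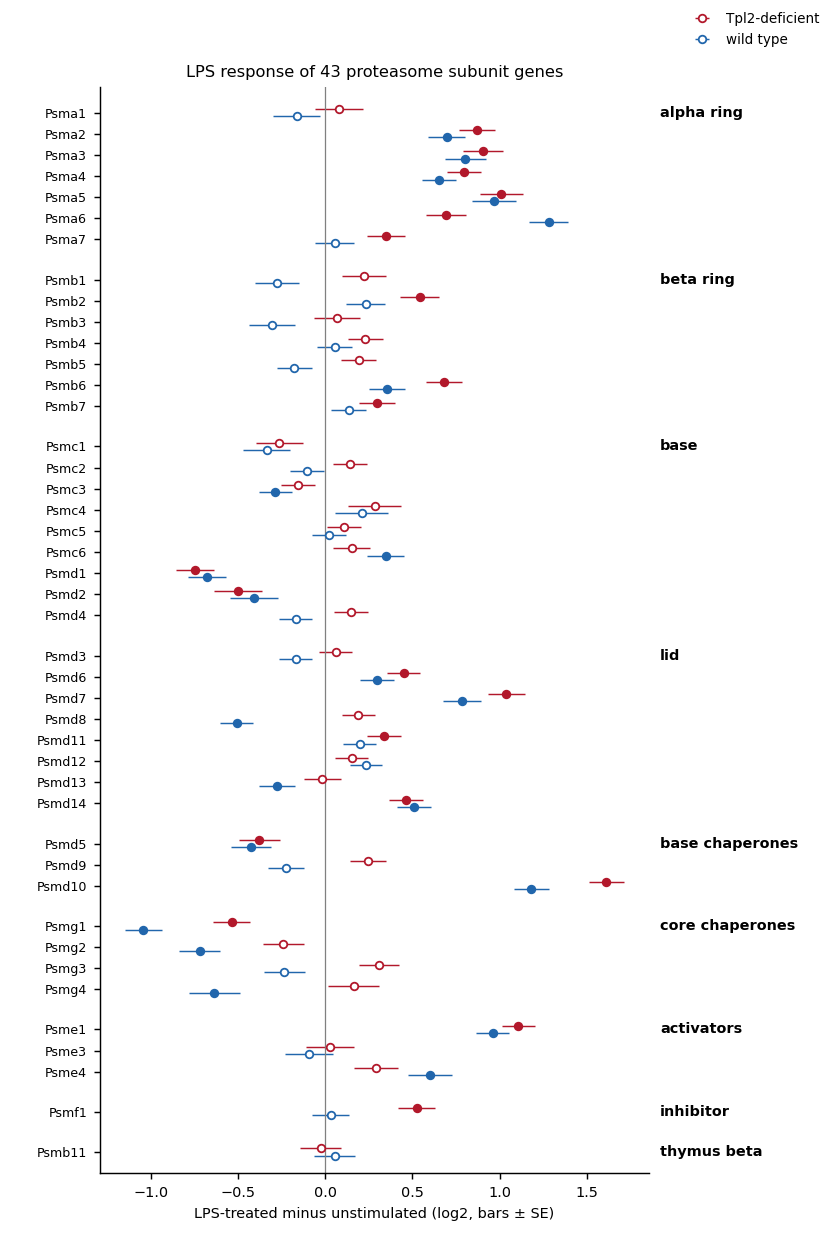
LPS-treated minus unstimulated log2 difference (x axis) of each of the 43 genes (y axis, grouped by role), in red for Tpl2-deficient and blue for wild-type macrophages; bars are standard errors, filled points passed the test and open points did not. Alpha-ring genes reach 1.28 to the right (Psma6, wild type) and the core chaperone Psmg1 lies at -1.04 in wild type.

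The alpha ring gates entry to the core. Psma6 had levels of 13.39 and 13.14 in LPS-treated against 12.50 and 12.65 in unstimulated Tpl2-deficient cells, a difference of 0.69 ± 0.11 (1.61-fold, adjusted p = 0.000396). In wild-type cells its levels were 13.88 and 13.83 under LPS against 12.54 and 12.61 unstimulated, a difference of 1.28 ± 0.11 (2.43-fold, adjusted p = 2.35e-06) and the largest rise of the 43 genes there. Neither pair of groups overlapped, which with LPS above held for 31.2% of all genes in Tpl2-deficient and 41.1% in wild-type cells. The LPS-treated Tpl2-deficient arrays lay between the LPS-treated wild-type and all unstimulated ones.

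Psma5 had levels of 12.97 and 12.70 in LPS-treated against 11.78 and 11.87 in unstimulated Tpl2-deficient cells, and 12.74 and 12.69 in LPS-treated against 11.62 and 11.87 in unstimulated wild-type cells. All LPS-treated arrays were above all unstimulated ones, by 1.01 ± 0.12 (2.02-fold) in Tpl2-deficient and 0.97 ± 0.12 (1.96-fold) in wild-type cells, and its 3 probe sets all rose in both genotypes. Psma3, Psma2 and Psma4 rose by 0.91, 0.87 and 0.80 in Tpl2-deficient cells and by 0.80, 0.70 and 0.65 in wild-type cells. Psma7 passed in Tpl2-deficient cells, where it differed by 0.35 ± 0.11 (adjusted p = 0.025), and differed by 0.05 ± 0.11 in wild-type cells (adjusted p = 0.702). Psma1 passed in neither genotype on the probe set used, with 0.08 ± 0.14 in Tpl2-deficient and -0.16 ± 0.14 in wild-type cells. Its second probe set was lower in both, with -0.35 (adjusted p = 0.0423) and -0.62 (adjusted p = 0.00149) over all probe sets. Its remaining probe sets did not pass.

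The beta ring holds the proteases. Psmb6, the subunit with caspase-like activity, had levels of 12.86 and 12.67 in LPS-treated against 12.09 and 12.08 in unstimulated Tpl2-deficient cells, and 12.53 and 12.54 in LPS-treated against 12.23 and 12.13 in unstimulated wild-type cells. It rose by 0.68 ± 0.10 (adjusted p = 0.000213) and by 0.35 ± 0.10 (adjusted p = 0.0136), with no overlap of the groups. The rise in wild-type cells did not pass with spike-in centring (0.22, adjusted p = 0.217), with quantile normalization repeated, or without either LPS-treated or the second unstimulated wild-type array (adjusted p from 0.0585 to 0.0999). Psmb7, with trypsin-like activity, differed by 0.30 ± 0.10 in Tpl2-deficient cells (adjusted p = 0.035) and by 0.13 ± 0.10 in wild-type cells (adjusted p = 0.29). The call in Tpl2-deficient cells was lost without any single array except the second LPS-treated Tpl2-deficient one, and spike-in centring gave 0.09. Psmb5, with chymotrypsin-like activity, passed in neither: its levels were 11.97 and 11.86 in LPS-treated against 11.73 and 11.72 in unstimulated Tpl2-deficient cells, and 11.88 and 11.75 in LPS-treated against 11.99 and 11.98 in unstimulated wild-type cells. Its differences were 0.19 (95% interval -0.03 to 0.41) and -0.18 (-0.40 to 0.04), and with quantile normalization repeated it passed as lower in wild-type cells (-0.26, adjusted p = 0.0424). Of the other beta subunits Psmb2 rose in Tpl2-deficient cells (0.54 ± 0.11), and Psmb1, Psmb3 and Psmb4 passed in neither genotype. In wild-type cells Psmb1 and Psmb3 passed as lower under spike-in centring and quantile normalization repeated, where they had -0.28 and -0.31 without passing in the values as deposited.

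The inducible counterparts of these proteases, which are not among the 43 genes, rose in both genotypes. Psmb8, Psmb9 and Psmb10 rose by 1.74, 2.31 and 2.19 in Tpl2-deficient cells and by 1.48, 1.99 and 2.06 in wild-type cells. The constitutive subunits they replace are Psmb5, Psmb6 and Psmb7. The genotypes did not differ beyond the threshold for any of the inducible 3, with LPS-treated Tpl2-deficient minus LPS-treated wild-type differences of 0.12 (95% interval -0.11 to 0.35), 0.27 (0.02 to 0.51) and 0.13 (-0.09 to 0.35). Pomp, the chaperone that helps the beta ring mature, passed in neither genotype, with differences of 0.13 ± 0.11 and 0.22 ± 0.11 in Tpl2-deficient and wild-type cells. With array weights Pomp passed as higher in wild-type cells (0.22, adjusted p = 0.0388).

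The base of the regulatory particle holds 6 ATPases. Of these, 0 passed in Tpl2-deficient cells on the probe sets used, beside 41.8% of all genes called there. A second Psmc4 probe set, whose arrays lay closer together, rose there by 0.39 (adjusted p = 0.0103 over all probe sets). In wild-type cells Psmc6 rose by 0.35 ± 0.11 (adjusted p = 0.0167) and Psmc3 fell by 0.29 on the log2 scale (adjusted p = 0.0275). The base also holds large scaffold subunits that dock ubiquitin shuttles and enzymes. Psmd1 had levels of 10.72 and 10.95 in LPS-treated against 11.55 and 11.62 in unstimulated Tpl2-deficient cells, and 11.07 and 11.09 in LPS-treated against 11.80 and 11.71 in unstimulated wild-type cells. All LPS-treated arrays were below all unstimulated ones, which held within a genotype for 35.5% of all genes in Tpl2-deficient and 39.2% in wild-type cells, with differences of -0.75 ± 0.11 and -0.68 ± 0.11 (adjusted p = 0.000163 and 0.000283). Psmd2, the other scaffold, also fell in both genotypes, with -0.50 ± 0.14 in Tpl2-deficient and -0.41 ± 0.14 in wild-type cells. Its LPS-treated Tpl2-deficient arrays were 11.68 and 12.13 against 12.45 and 12.35 unstimulated, further apart than the wild-type pair, and without the first unstimulated Tpl2-deficient array the call was lost (adjusted p = 0.0802), as it was over the mean of its probe sets (-0.26, adjusted p = 0.0632). Psmd4, a ubiquitin receptor, passed in neither genotype, with 0.15 ± 0.10 and -0.17 ± 0.10.

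In the lid, 4 of 8 genes rose in Tpl2-deficient cells (Psmd7, Psmd14, Psmd6 and Psmd11), beside 16% of all genes. In wild-type cells 3 rose (37.5%) and 2 fell (25%), beside 21.3% and 30.9% of all genes. Psmd14, the deubiquitinase that cuts ubiquitin chains off substrates, had levels of 12.43 and 12.34 in LPS-treated against 11.92 and 11.93 in unstimulated Tpl2-deficient cells, and 12.50 and 12.49 in LPS-treated against 11.93 and 12.04 in unstimulated wild-type cells. The groups did not overlap, and the differences of 0.46 ± 0.10 and 0.51 ± 0.10 both passed, although with spike-in centring the rise in Tpl2-deficient cells was 0.26 and did not pass (adjusted p = 0.111). Psmd7, which pairs with Psmd14, rose by 1.04 ± 0.11 and 0.78 ± 0.11 on the probe set used, but its second probe set gave 0.07 in Tpl2-deficient cells, which did not pass, and -0.39 in wild-type cells (adjusted p = 0.0127), so its direction rests on the probe set. Psmd8 fell in wild-type cells by 0.51 on the log2 scale (adjusted p = 0.000831) and did not pass in Tpl2-deficient cells (0.19 ± 0.09, adjusted p = 0.136). Psmd13 fell in wild-type cells by 0.28 on the log2 scale with an adjusted p of 0.0452.

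Chaperones that assemble the base moved in different directions. Psmd10, also known as gankyrin, had levels of 11.63 and 11.46 in LPS-treated against 9.93 and 9.94 in unstimulated Tpl2-deficient cells, and 11.15 and 11.09 in LPS-treated against 9.93 and 9.95 in unstimulated wild-type cells. It rose by 1.61 ± 0.10 (3.06-fold, adjusted p = 1.5e-07) and by 1.18 ± 0.10 (2.27-fold, adjusted p = 1.73e-06), the largest rise of the 43 genes in Tpl2-deficient cells. Psmd5 fell in both genotypes, with -0.38 ± 0.12 and -0.43 ± 0.12, and Psmd9 passed in neither, with 0.25 ± 0.11 and -0.22 ± 0.11. The Psmd5 call was lost without the second unstimulated array in wild-type cells (adjusted p = 0.057), and without either unstimulated or the first LPS-treated array in Tpl2-deficient cells (adjusted p from 0.0682 to 0.113). With quantile normalization repeated neither Psmd5 call passed (-0.26, adjusted p = 0.0566, in Tpl2-deficient and -0.21, adjusted p = 0.0922, in wild-type cells). Psmd9 passed as higher in Tpl2-deficient cells with that normalization (0.38, adjusted p = 0.014) and as lower in wild-type cells over the mean of its probe sets (-0.41, adjusted p = 0.00382), among other settings.

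Chaperones of the core pair up to build the alpha ring, and 3 of the 4 were lower with LPS in wild-type cells, beside 30.9% of all genes. Psmg1 had levels of 9.13 and 8.92 in LPS-treated against 9.61 and 9.51 in unstimulated Tpl2-deficient cells, and 8.82 and 8.85 in LPS-treated against 9.88 and 9.88 in unstimulated wild-type cells. It fell in both genotypes, with -0.53 ± 0.11 (adjusted p = 0.00158) and -1.04 ± 0.11 (2.06-fold lower, adjusted p = 7.57e-06), the largest fall of the 43 genes in wild-type cells. Its partner Psmg2 had -0.24 ± 0.12 in Tpl2-deficient cells (adjusted p = 0.134) and fell in wild-type cells, with -0.72 ± 0.12 (adjusted p = 0.000336). In Tpl2-deficient cells Psmg2 passed as lower with spike-in centring (-0.44, adjusted p = 0.0082), and it had -0.36 without the first LPS-treated array. Psmg4 had 0.16 ± 0.15 (adjusted p = 0.42) and -0.64 ± 0.15 (adjusted p = 0.00338), and its partner Psmg3 had 0.31 ± 0.12 and -0.23 ± 0.12, neither past the test. Other settings called Psmg3: as higher in Tpl2-deficient cells with array-median centring, genes above the median, the mean-variance trend or without the second LPS-treated Tpl2-deficient array (0.43, adjusted p = 0.0139). In wild-type cells it was called lower over the mean of its probe sets (-0.40, adjusted p = 0.00217), with spike-in centring and with array weights. That mean includes a second Psmg3 probe set with levels from 5.58 to 6.37, under the array medians, which gave -0.57 in wild-type cells. In every alternative processing run, 3 or all 4 of these chaperones were called lower in wild-type cells, while 5 alpha-ring genes were called higher.

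Alternative activators cap the core without ATP. Psme1, a subunit of the interferon-inducible cap, had levels of 13.39 and 13.33 in LPS-treated against 12.28 and 12.22 in unstimulated Tpl2-deficient cells, and 13.23 and 13.24 in LPS-treated against 12.29 and 12.26 in unstimulated wild-type cells. It rose by 1.11 ± 0.10 (2.15-fold) and 0.96 ± 0.10 (1.95-fold), with adjusted p of 2.14e-06 and 5.88e-06. Psme4, a large nuclear activator, rose in wild-type cells by 0.60 ± 0.13 (adjusted p = 0.00183) and had 0.29 ± 0.13 in Tpl2-deficient cells (adjusted p = 0.0879). Psme4 also passed there over the mean of its probe sets (0.49, adjusted p = 0.00661), with the mean-variance trend (adjusted p = 0.0496) and without the first LPS-treated Tpl2-deficient array (0.48, adjusted p = 0.00415). Psme3, the nuclear relative of Psme1, passed in neither on the probe set used (0.03 ± 0.14 and -0.09 ± 0.14), while its second probe set rose in both, by 0.88 and 0.55. Psmf1, an inhibitor of the core in vitro, rose in Tpl2-deficient cells by 0.52 ± 0.11 (adjusted p = 0.00191) and had 0.03 ± 0.11 in wild-type cells. A second Psmf1 probe set gave 0.02 in Tpl2-deficient and -0.76 in wild-type cells, so the level of Psmf1 under LPS depends on the probe set. Its rise in Tpl2-deficient cells did not pass over the mean of its probe sets (0.16, adjusted p = 0.17) or with spike-in centring (0.32, adjusted p = 0.0544).

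**Figure D2:**
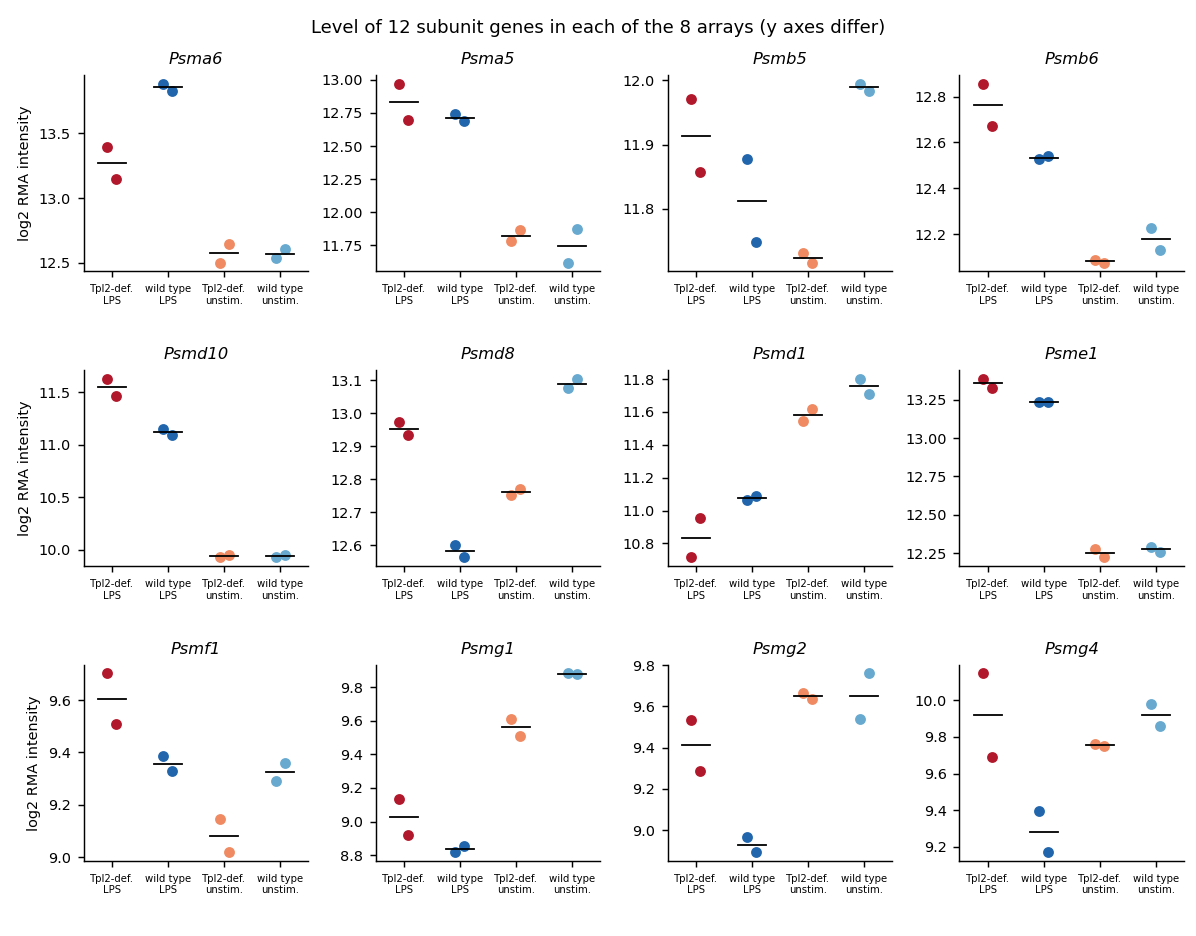
Log2 RMA intensity (y axis, a separate scale in each panel) of 12 genes in each array of the 4 groups (x axis: LPS-treated Tpl2-deficient, LPS-treated wild-type, unstimulated Tpl2-deficient, unstimulated wild-type); points are arrays and lines are group means. Psma6 is highest in the LPS-treated wild-type arrays (13.88 and 13.83) and Psmd10 in the LPS-treated Tpl2-deficient arrays (11.63 and 11.46), while Psmg1 is lowest in the LPS-treated wild-type arrays (8.82 and 8.85).

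Promoter sequences were read for genes that moved furthest or differed between the genotypes. RefSeq start sites of build GRCm38.p6 were found for 36 of the 43 genes, which gave 38 promoters of 300 bases, from 250 before to 50 after the start. The motifs searched on both strands were CCAAT (the NF-Y box), GAAA followed after any 2 bases by GAAA (the core of an interferon-stimulated response element), TGACNNNGC (the core of an antioxidant response element), GGGA followed after any 1 base by TTTCC (a kappaB site) and TTCNNNGAA (a STAT site). No letters of one motif overlapped those of another in the sequences printed here. Matches are in capitals and stretches end 30 bases after the start. Psma6 is shown for the largest rise in wild-type cells (2 listed starts, chr12:55383972-55384251 and chr12:55398575-55398854, both plus strand), Psmd10 for the largest rise in Tpl2-deficient cells (chrX:140956682-140956961, minus strand), Psme1 for the interferon-inducible cap (chr14:55578244-55578523, plus strand), Psmb6 as the catalytic subunit that rose in both genotypes (chr11:70525107-70525386, plus strand) and Psmg4 for its genotype difference (chr13:34162714-34162993, plus strand).
Psma6, first start: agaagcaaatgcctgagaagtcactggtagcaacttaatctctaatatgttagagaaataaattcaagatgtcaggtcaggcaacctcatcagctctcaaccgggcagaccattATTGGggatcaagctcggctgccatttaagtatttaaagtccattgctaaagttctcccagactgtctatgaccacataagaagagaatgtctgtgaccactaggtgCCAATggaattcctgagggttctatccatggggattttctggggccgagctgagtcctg
Psma6, second start: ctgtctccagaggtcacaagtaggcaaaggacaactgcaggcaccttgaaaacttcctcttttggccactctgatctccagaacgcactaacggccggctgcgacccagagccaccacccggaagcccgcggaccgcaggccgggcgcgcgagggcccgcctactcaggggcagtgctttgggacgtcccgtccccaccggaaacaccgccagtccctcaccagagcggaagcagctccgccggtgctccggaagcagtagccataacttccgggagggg
Psmd10: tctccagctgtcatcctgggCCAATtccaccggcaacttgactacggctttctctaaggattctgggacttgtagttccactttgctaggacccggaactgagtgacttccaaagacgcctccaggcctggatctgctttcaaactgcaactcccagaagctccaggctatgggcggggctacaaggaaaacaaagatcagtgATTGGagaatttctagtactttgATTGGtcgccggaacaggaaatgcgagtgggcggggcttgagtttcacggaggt
Psme1: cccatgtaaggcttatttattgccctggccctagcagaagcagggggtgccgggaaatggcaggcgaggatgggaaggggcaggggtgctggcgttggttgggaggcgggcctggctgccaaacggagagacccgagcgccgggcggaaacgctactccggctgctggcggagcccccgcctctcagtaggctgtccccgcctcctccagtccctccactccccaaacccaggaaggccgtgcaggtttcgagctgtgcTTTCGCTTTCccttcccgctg
Psmb6: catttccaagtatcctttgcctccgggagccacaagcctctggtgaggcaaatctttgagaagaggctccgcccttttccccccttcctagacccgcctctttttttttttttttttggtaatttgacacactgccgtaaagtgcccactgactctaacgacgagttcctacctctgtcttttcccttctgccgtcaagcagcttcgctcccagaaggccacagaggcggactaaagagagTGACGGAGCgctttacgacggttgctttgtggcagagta
Psmg4: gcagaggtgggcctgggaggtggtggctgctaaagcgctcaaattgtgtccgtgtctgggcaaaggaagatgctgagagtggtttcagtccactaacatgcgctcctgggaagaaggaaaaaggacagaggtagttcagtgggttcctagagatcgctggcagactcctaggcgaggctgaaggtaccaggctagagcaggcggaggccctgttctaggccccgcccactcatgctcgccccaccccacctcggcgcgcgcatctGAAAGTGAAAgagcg

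The first Psma6 start holds 2 CCAAT boxes on opposite strands and the second start holds none of the 5 motifs, and Psmd10 holds 3 CCAAT boxes. Psme1 and Psmg4 each hold 1 interferon-type match just after the start, on opposite strands, although Psme1 rose with LPS in both genotypes and Psmg4 in neither. Psmb6 holds 1 antioxidant-type match just before the start. Of 8 alpha-ring promoters 5 hold CCAAT (62.5%) and 0 hold any of the other 4 motifs. Among all 38 promoters of the group 13 hold CCAAT (34.2%), 5 the interferon-type motif (13.2%), 6 the antioxidant-type motif (15.8%), 2 the STAT motif (5.26%) and 0 the kappaB motif. Among 32851 promoters of the same length the shares were 37.4%, 3.44%, 12.4%, 8.3% and 0.411%, in the same order. A match is a description of letters and not a shown binding site.

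The core was next set against the regulatory particle, array by array, as the mean level of each subcomplex minus its mean in unstimulated wild-type cells. The alpha ring stood at 0.76 and 0.54 in LPS-treated Tpl2-deficient, 0.64 and 0.59 in LPS-treated wild-type, -0.08 and 0.04 in unstimulated Tpl2-deficient and -0.04 and 0.04 in unstimulated wild-type arrays. The beta ring stood at 0.28 and 0.05, 0.03 and -0.02, -0.16 and -0.14, and 0.02 and -0.02 in the same order of groups. For the alpha ring all LPS-treated arrays lay above all unstimulated ones, whereas for the beta ring the LPS-treated wild-type arrays lay within 0.05 of the unstimulated wild-type ones.

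The base stood at -0.29 and -0.21 in LPS-treated Tpl2-deficient, -0.13 and -0.19 in LPS-treated wild-type, -0.19 and -0.13 in unstimulated Tpl2-deficient and -0.01 and 0.01 in unstimulated wild-type arrays. The lid stood at 0.09 and 0.12, 0.17 and 0.10, -0.24 and -0.22, and -0.03 and 0.03 in the same order of groups. The core mean minus the regulatory particle mean, relative to unstimulated wild-type cells, was 0.63 and 0.35 in LPS-treated Tpl2-deficient, 0.32 and 0.33 in LPS-treated wild-type, 0.09 and 0.12 in unstimulated Tpl2-deficient and 0.01 and -0.01 in unstimulated wild-type arrays. Every LPS-treated array thus had a larger core surplus than every unstimulated one. The LPS-treated Tpl2-deficient arrays split on it: 14 of 14 core genes were higher in replicate 1 than in replicate 2, against 5 of 17 regulatory particle genes. In LPS-treated wild-type arrays these counts were 11 of 14 and 14 of 17.

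**Figure D3:**
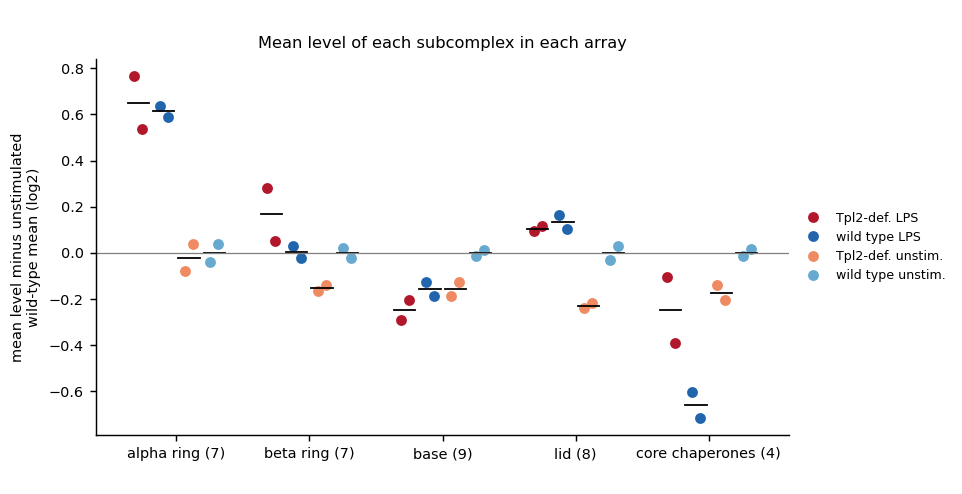
Mean log2 level of 5 subcomplexes (x axis, gene number in brackets) in each array, minus the mean of the unstimulated wild-type arrays (y axis); points are arrays, lines group means and colours the 4 groups. The alpha ring is above 0.5 in all LPS-treated arrays, and the core chaperones are lowest in LPS-treated wild-type arrays (-0.60 and -0.71).

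The second question is whether Tpl2 deficiency changed these genes in unstimulated cells. Of the 43 genes 0 passed the limma test, against 0.5% of all genes, and 11 had an unadjusted p under 0.05, against 2445 of 18193 genes. With array weights 4 passed as lower (Psmc1, Psmd7, Psmd8 and Psmd9, 9.3%, beside 2.14% of all genes), and with a mean-variance trend 1 did (Psmd8, 2.33%, beside 0.544%). Most differences were negative, 35 of 43 (81.4%), against 50.9% of all genes, with a median of -0.12 against -0.00. Among genes above the median level, fitted alone, the median was -0.13 for the 42 of this group and -0.06 for all. The 2 most negative were Psmd7 and Psmc1, both with -0.47, and all 8 lid genes were negative, with a median of -0.22. In Psmd8, a lid subunit, the levels were 12.75 and 12.77 in unstimulated Tpl2-deficient against 13.07 and 13.10 in unstimulated wild-type cells. These arrays did not overlap, as was true of 29.2% of all genes in that direction, and the difference of -0.33 ± 0.09 had an adjusted p of 0.19. The largest positive difference was that of the activator Psme4, with 11.31 and 11.31 in unstimulated Tpl2-deficient against 11.12 and 11.06 in unstimulated wild-type cells (0.22 ± 0.13, adjusted p = 0.478); groups stood apart in that direction in 23.9% of all genes. With spike-in centring the median over the 43 genes was -0.03, against a shift of the median of all genes to 0.10.

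The third question is how the genotypes differed under LPS. Of the 43 genes 4 were higher and 1 was lower in Tpl2-deficient cells (11.6%), against 13.7% of all genes called in either direction, so the share was near that of all genes. The higher genes were Psmg4, Psmg2, Psmd10 and Psmd8, against 8.01% of all genes higher, and the lower one was Psma6, against 5.73% lower. The median difference over the 43 genes was 0.07, against 0.02 over all genes. Among genes above the median level, fitted alone, these medians were 0.08 and 0.05. These calls rest on single arrays: the higher genes numbered 1 without the first LPS-treated wild-type array (Psmg4), 0 without the second, and 2 without the first LPS-treated Tpl2-deficient array (Psmd10 and Psmd8). Without the second LPS-treated Tpl2-deficient array 8 were higher (18.6%) and 4 lower (9.3%), beside 9.57% and 8.24% of all genes.

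Psma6 was the 1 alpha subunit called. Its levels under LPS of 13.39 and 13.14 in Tpl2-deficient against 13.88 and 13.83 in wild-type cells differed by -0.58 ± 0.11 (1.5-fold lower, adjusted p = 0.00526), while in unstimulated cells the difference was 0.01 ± 0.11. Of its 4 probe sets 3 gave -0.58, -0.67 and -0.77 (adjusted p from 0.000487 to 0.00758 over all probe sets). The fourth was near its unstimulated level in LPS-treated Tpl2-deficient cells and under the array median there (4.71 and 5.10, against 6.79 and 7.09 in LPS-treated wild-type cells), so no size is given for it. Its groups stood apart, as held for 19.7% of all genes in that direction. Without the first LPS-treated wild-type array the adjusted p was 0.0515. The other 6 alpha-ring genes and all 7 beta-ring genes had positive differences under LPS that did not pass, from 0.03 (Psmb4) to 0.37 (Psmb1, adjusted p = 0.08).

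Of the 4 core chaperones 2 were higher in LPS-treated Tpl2-deficient cells, and both calls were lost without the second LPS-treated wild-type array. Psmg4 had levels of 10.15 and 9.69 in LPS-treated Tpl2-deficient against 9.40 and 9.17 in LPS-treated wild-type cells, a difference of 0.63 ± 0.15 (1.55-fold, adjusted p = 0.0138). Psmg2 had levels of 9.53 and 9.29 against 8.97 and 8.89, a difference of 0.48 ± 0.12 (1.4-fold, adjusted p = 0.0199), and its second probe set gave 0.59 (adjusted p = 0.00615). Neither pair of groups overlapped, although the arrays of Psmg4 in Tpl2-deficient cells lay further apart than those in wild-type cells. Psmg3 and Psmg1 had 0.34 ± 0.12 (adjusted p = 0.0858) and 0.19 ± 0.11 (adjusted p = 0.328) without passing. Among the proteasome partners, the deubiquitinase Uchl5 (0.49 ± 0.13, adjusted p = 0.0254) and Txnl1 (0.34 ± 0.10, adjusted p = 0.0477) were also higher, 2 of 8 measured (25%), beside 8.01% of all genes. Psmg2 and Txnl1 lie on chromosome 18, as does the targeted gene Map3k8. Whether DNA linked to the targeted gene has a part in their genotype differences was not tested.

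Psmd10 was higher by 0.43 ± 0.10 in LPS-treated Tpl2-deficient than in LPS-treated wild-type cells (1.34-fold, adjusted p = 0.0159), with a difference of -0.01 ± 0.10 between the unstimulated genotypes. Psmd8 had levels of 12.97 and 12.93 in LPS-treated Tpl2-deficient against 12.60 and 12.56 in LPS-treated wild-type cells, a difference of 0.37 ± 0.09 (1.29-fold, adjusted p = 0.0237). In both genes the groups did not overlap, as held for 26.9% of all genes in that direction. A second probe set of Psmf1 was also higher, by 0.60, whereas the probe set used gave 0.25 and did not pass.

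**Figure D4:**
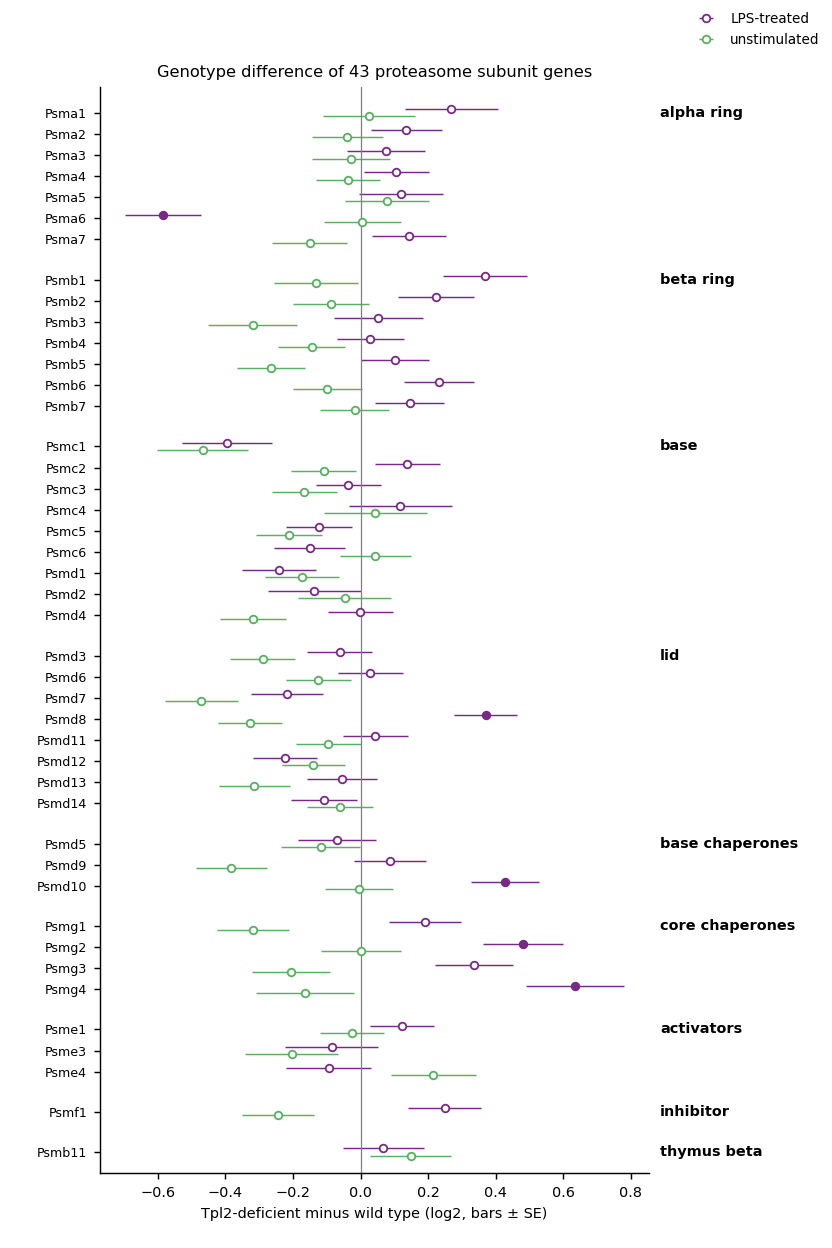
Tpl2-deficient minus wild-type log2 difference (x axis) of each of the 43 genes (y axis, grouped by role), in purple for LPS-treated and green for unstimulated macrophages; bars are standard errors, filled points passed the test and open points did not. Filled points are the LPS-treated Psma6 (-0.58), Psmd8 (0.37), Psmd10 (0.43), Psmg2 (0.48) and Psmg4 (0.63).

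The last comparison tests whether the LPS response itself differed between the genotypes, as the response in Tpl2-deficient minus that in wild-type cells. Of the 43 genes 3 passed (6.98%), against 8.59% of all genes, with 2 higher against 5.72% of all genes and 1 lower against 2.87%. Psmd8 had a response of 0.19 in Tpl2-deficient and -0.51 in wild-type cells, a difference of 0.70 ± 0.13 (95% interval 0.40 to 0.99, adjusted p = 0.00849). Psmg4 had 0.16 and -0.64, a difference of 0.80 ± 0.21 (0.34 to 1.25, adjusted p = 0.037). Psma6 had 0.69 and 1.28, a difference of -0.59 ± 0.16 (-0.94 to -0.24, adjusted p = 0.0461). Psmd8 passed in every alternative run, while the other calls rest on single arrays and on the processing. Psmg4 did not pass with quantile normalization repeated (0.67, adjusted p = 0.115), with spike-in centring (adjusted p = 0.053) or over the mean of its probe sets (adjusted p = 0.0512). Psma6 did not pass with array-median centring (-0.55, adjusted p = 0.0508) or without _x_at and _s_at probe sets (-0.58, adjusted p = 0.0697). With each probe set fitted alone neither passed. Psmg4 lost its call without any single array outside the LPS-treated Tpl2-deficient group (adjusted p from 0.0536 to 0.152), and Psma6 without any array except the first LPS-treated Tpl2-deficient one (adjusted p from 0.0559 to 0.189). Without the second LPS-treated Tpl2-deficient array 10 of the 43 genes had a higher response (23.3%), beside 8.62% of all genes.

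The signs again ran mostly one way. The response was above that of wild-type cells in 35 of 43 genes (81.4%), against 51.3% of all genes, with a median of 0.17 against 0.01. Among genes above the median level, fitted alone, the median was 0.17 for the 42 of this group and 0.11 for all. There 16.7% of the 42 passed as higher, beside 15% of all such genes. All 4 core chaperones had positive values, from 0.48 to 0.80, and all 7 beta-ring genes did, from 0.16 to 0.50. These values share the unstimulated arrays, where 35 of the 43 genes had a lower level in Tpl2-deficient cells. Psme4 (-0.31 ± 0.18) and Psmc6 (-0.19 ± 0.15) were among the 8 negative ones and did not pass. Among probe sets not used, the second ones of Psmg2 (0.83, adjusted p = 0.0123) and Psmf1 (0.78, adjusted p = 0.02) had a higher response over all probe sets. So did the third Psmd9 probe set (0.92, adjusted p = 0.0107), with levels from 5.16 to 6.39, under the array medians. The third Psma6 probe set had a lower response (-0.64, adjusted p = 0.0286), while its second did not pass (-0.58, adjusted p = 0.0988). The fourth, which lay low in LPS-treated Tpl2-deficient cells, was also lower.

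Transcription factors and adaptors that act on the proteasome were measured beside it. Nfe2l2, which encodes NRF2 and activates proteasome genes under oxidative stress, had levels of 12.34 and 12.49 in LPS-treated Tpl2-deficient against 13.08 and 13.00 in LPS-treated wild-type cells. The difference was -0.62 ± 0.10 (adjusted p = 0.00179), and with LPS it fell in Tpl2-deficient cells (-0.38 ± 0.10) and rose in wild-type cells (0.40 ± 0.10). Over the mean of its probe sets the fall was -0.13 and did not pass, and both calls were lost without some single arrays: the second unstimulated array in Tpl2-deficient cells, and the first LPS-treated or first unstimulated array in wild-type cells. The rise in wild-type cells also did not pass with spike-in centring (0.26, adjusted p = 0.122) or with quantile normalization repeated (0.24, adjusted p = 0.055). Nfe2l1, which encodes NRF1, the factor that restores proteasome genes when the proteasome is inhibited, rose in Tpl2-deficient cells by 0.69 ± 0.14 (adjusted p = 0.00135) and had 0.18 ± 0.14 in wild-type cells, and its response did not differ between the genotypes beyond the threshold (0.52 ± 0.19, adjusted p = 0.132). The LPS-treated Tpl2-deficient arrays of Nfe2l1 stood at 11.08 and 11.53, and without the first its difference in response was 0.74. Zfand5, a proteasome-binding activator, did not pass in Tpl2-deficient cells (-0.07 ± 0.10) and rose in wild-type cells by 1.18 ± 0.10 (2.26-fold). Of 6 such regulators measured, 1 rose and 4 fell in Tpl2-deficient cells, and 2 rose and 3 fell in wild-type cells. Of all genes 16% and 21.3% rose. Zfand2a had the largest fall, with -3.10 in Tpl2-deficient and -2.72 in wild-type cells, and Ngly1 and Vcp also fell in both. Of 4 ubiquitin shuttles measured, Rad23b rose (0.30 ± 0.11, adjusted p = 0.0499) and 2 fell in Tpl2-deficient cells, and 2 fell in wild-type cells; of all genes 25.8% and 30.9% fell. Ubqln2 fell in both genotypes, with -1.06 in Tpl2-deficient and -1.26 in wild-type cells.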

How the data were processed

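Total RNA from the macrophages was labelled with biotin and hybridised to 8 arrays, 2 per group, per the labels' protocols. The values deposited by the authors are log2 expression values; per the submitters' processing notes GCOS and RMA were used (versions, chip definition file and genome build: not given in the sources used here). Values were used as deposited, with no filter on low values and no detection calls. Of 45101 probe sets, 64 controls were set aside, and 34945 of the others list 1 symbol in the array's annotation. Over all probe sets, controls included, 932 list several symbols and 9211 none. The highest mean over the arrays chose a gene's probe set; 25 of the 43 genes have several.

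Tests were two-sided, with limma 3.58.1 in R 4.3.3 (lmFit, eBayes), on all 8 arrays with a mean per group and no covariate (4 residual and 6.87 prior degrees of freedom), in 5 comparisons. Groups came from the sample titles. The genes and lists were chosen with earlier results of these data known. Named genes are the 6 largest rises and 6 largest falls past the test in each comparison, and a fixed set: the catalytic subunits, Psmd14, Psmd4, activators, inhibitor, chaperones, Psmb11, the immunoproteasome, Pomp, Nfe2l1, Nfe2l2 and Map3k8. Other named genes were chosen after their values were seen. Alternatives changed the probe sets (averaged per gene, each fitted alone, without _x_at and _s_at types), the scaling (quantile normalization repeated, array medians, 18 hybridisation spike-in probe sets), the filter (genes above the median), the model (mean-variance trend, array weights, replicate block) and the arrays (each left out in turn). The fit was tested on simulated data. Same-numbered arrays of different groups did not deviate together (r from -0.12 to 0.10 across genes), so no pairing was used. Promoters are RefSeq sequences, matched by symbol.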

Additional observations from a re-analysis of the deposited data

Results flagged for a closer look

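The difference between the LPS responses of the genotypes passed the test in 5 of the named genes. Zfand5 is among them as a gene chosen after its value was seen. Of 6 regulators of proteasome genes measured, 2 were called lower (33.3%), beside 2.87% of all genes. Of 8 proteasome partners and 4 ubiquitin shuttles measured, 0 were called. The log2 response in Tpl2-deficient minus that in wild-type cells was -1.24 for Zfand5 (adjusted p = 0.000428), -0.78 for Nfe2l2 (adjusted p = 0.00729), 0.70 for Psmd8 (adjusted p = 0.00849), 0.80 for Psmg4 (adjusted p = 0.037) and -0.59 for Psma6 (adjusted p = 0.0461), by limma with Benjamini-Hochberg adjustment over all genes.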

How the results depend on the processing

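Of 52 called results for named genes, 36 kept their call in all alternatives, and 1 value reversed: Psmf1 with LPS in wild-type cells was -0.28 (adjusted p = 0.021) with the mean of all probe sets. Spike-in centring gave 14 genes lower with LPS in wild-type cells, and in Tpl2-deficient cells 9 higher beside 7 lower; 1 had a higher LPS response. Array weights gave 14 lower with LPS in wild-type cells, 4 lower in unstimulated Tpl2-deficient cells and 1 higher in LPS-treated Tpl2-deficient cells. The mean-variance trend gave 1 lower in unstimulated and 2 lower in LPS-treated Tpl2-deficient cells and 4 with a higher response. Only genes above the median gave 2 lower under LPS and 7 with a higher response, median centring 5 and 0 with a higher and a lower response, quantile normalization 1 with a higher response, each probe set on its own 1 and 0, and leaving out _x_at and _s_at probe sets 0 with a lower one. Leaving out 1 array gave 10 to 16 higher and 5 to 12 lower with LPS in wild-type cells, 13 to 20 and 2 to 5 in Tpl2-deficient cells, 0 to 0 by genotype unstimulated, 0 to 8 higher and 0 to 4 lower by genotype under LPS, and 1 to 10 higher and 0 to 1 lower in the response. The 5 was without the second unstimulated wild-type array and the 2 without the first unstimulated Tpl2-deficient one. The cause of these shifts was not tested, and neither was the part of fewer samples or genes in the fit.

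With the replicate number as a block, 0 genes had a lower LPS response (Psma6, adjusted p = 0.0618), Psmg3 passed as higher with LPS in Tpl2-deficient cells (0.31, adjusted p = 0.0447), and the block changed no other count by over 1.5 times. A crossed block, added after seeing the data, gave 16 higher and 4 lower with LPS in Tpl2-deficient cells. The 2 arrays per group and probe set signals without detection calls limit what can be resolved, above all for Psmb11.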
